A study of Mus musculus with 6 samples.

Results

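Phagocyte oxidase and antioxidant genes were described in starry-sky tumor-associated macrophages (SS-TAMs) and germinal center macrophages (GCMs). The 9 genes were chosen by name, and their levels were read from the 10 probe sets whose platform annotation names 1 of them and no other gene, among 28944 probe sets and 19938 genes on the arrays. They comprise 4 oxidase subunit genes (Cybb, Cyba, Ncf1 and Ncf4) and 5 antioxidant enzyme genes (Nqo1, Gclm, Gclc, Txnrd1 and Prdx1). SS-TAMs were cut by laser from tumors that BL2 cells, an established line of human Burkitt's lymphoma, had formed in female Balb/c SCID mice, at a size of 1.44 cm2. SCID mice lack mature T and B cells. The CD68 antibody stain that guided the cutting is named for the tumor sections. GCMs were cut from germinal centers of female CSF1R EGFP transgenic Balb/c mice that had received 2 doses of sheep red blood cells. In these mice EGFP is under Csf1r control, and they are not immunodeficient. All mice were 6 to 12 weeks old, and 1000 cells per mouse gave amplified RNA for 1 Affymetrix Mouse Gene array, with 3 SS-TAM and 3 GCM arrays in all. Genotype, immune status, the sheep red blood cell doses, tissue and tumor differ together between the groups and cannot be told apart. The tissue label of the GCM mice names spleen, and their source label names lymph nodes.

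The phagocyte oxidase makes superoxide from oxygen and NADPH at the membrane of phagosomes and of the cell surface. Its membrane core consists of gp91phox, encoded by Cybb, and p22phox, encoded by Cyba. It becomes active when the cytosolic subunits, among them p47phox (Ncf1) and p40phox (Ncf4), and a RAC GTPase dock onto this core. Macrophages use it against microbes and during uptake of particles, and other myeloid cells and B cells also carry it. The antioxidant enzymes dispose of the oxidants or repair their damage, and all 5 genes are textbook targets of the transcription factor NRF2, which binds antioxidant response elements together with small MAF proteins.

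On every SS-TAM array Cybb and Cyba were both higher than on any GCM array, so their upstream sequences are shown to compare the 2 genes. The sequences are the 250 bases before the RefSeq transcript start (GRCm38.p6, sense strand, 5′ to 3′), and capitals mark matches to CCAAT or to the GC box GGGCGG on either strand.
Cybb, chrX:9469325-9469574, minus strand: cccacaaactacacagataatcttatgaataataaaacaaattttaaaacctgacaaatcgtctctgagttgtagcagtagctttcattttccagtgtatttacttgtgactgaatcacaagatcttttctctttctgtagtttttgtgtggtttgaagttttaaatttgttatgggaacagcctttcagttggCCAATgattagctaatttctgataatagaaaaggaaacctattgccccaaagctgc
Cyba, chr8:122432941-122433190, minus strand: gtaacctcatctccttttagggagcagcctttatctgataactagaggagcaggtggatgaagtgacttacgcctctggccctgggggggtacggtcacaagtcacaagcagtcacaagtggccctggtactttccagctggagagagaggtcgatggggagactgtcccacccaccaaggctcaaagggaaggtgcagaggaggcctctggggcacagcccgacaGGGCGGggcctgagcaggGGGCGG
The 2 windows differed in base composition, with 34.0% G and C for Cybb and 60.0% for Cyba, against a median of 52.4% over the 32851 RefSeq promoter windows. The Cybb window held 1 CCAAT match, 56 bases before the start, and no GC box, whereas the Cyba window held 2 GC boxes, 24 and 6 bases before the start, and no CCAAT. Of all windows of this length, 33.9% held a CCAAT match and 32.7% a GC box, so either motif by itself is common.

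A promoter window was at hand for 7 of the 9 genes. The core of the antioxidant response element, TGACNNNGC, was sought on both strands and lay in a window of Gclm, Prdx1 and, at 1 of its 3 start sites, Txnrd1. It was found in 10.2% of all windows. These stretches of 41 bases are shown because the 3 genes share the element by sequence, and the matches, in capitals, run on the strand opposite to the gene.
Gclm, chr3:122245407-122245447, plus strand: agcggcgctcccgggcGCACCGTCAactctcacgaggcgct
Txnrd1, chr10:82859098-82859138, plus strand: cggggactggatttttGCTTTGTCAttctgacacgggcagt
Prdx1, chr4:116685450-116685490, plus strand: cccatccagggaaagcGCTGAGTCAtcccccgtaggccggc
The first base of the match lay 134 bases before the start in Gclm, 92 in Txnrd1 and 133 in Prdx1. The window of Nqo1 held no match of these letters, which says nothing of sequence outside it. Matches are descriptions of sequence only, and no binding was measured here.

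Levels are given as deposited intensities on a linear scale with 1 decimal, and differences as log2 SS-TAM minus GCM. Median intensity was 6.1 to 6.5 on the 6 arrays, while the 99th percentile ranged between 241 and 284 in SS-TAMs and between 614 and 664 in GCMs. Across all probe sets, not independent of each other, arrays correlated at 0.967 to 0.976 within SS-TAMs, 0.986 to 0.991 within GCMs and 0.903 to 0.933 between the groups. Limma called 1028 genes higher and 946 lower at a Benjamini-Hochberg adjusted p under 0.05, and 746 higher and 1169 lower once each array was centred on its median. These counts depended on the GCM arrays: with GCM replicate 1, 2 or 3 left out, 348, 271 and 303 genes were higher and 499, 399 and 433 lower. Of 22 core macrophage markers measured, 14 were called higher and 0 lower in SS-TAMs by limma (0 lower also at an unadjusted p under 0.05). Their mean log2 fold change was 1.34. Lower markers included 8 of 14 for T cells and 4 of 9 for dendritic cells, and 4 of 12 fibroblast and pericyte markers were higher. As these are RNA pools of captured cells, fewer cells of a type and less RNA per cell cannot be told apart.

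Among the 9 genes, Cyba rose in SS-TAMs with the values as deposited, though not when scaled to the macrophage markers (-0.29 on the log2 scale). None fell by limma's test at an adjusted p under 0.05 (0 lower also at an unadjusted p under 0.05, and 2 higher, Cyba and Cybb). This is 1 of 9 genes, where 5.16% of all genes were called higher, 4.74% lower and 9.9% either way. The arrays of the groups did not overlap for Cybb, Cyba and Prdx1, or 3 of 9 genes, against 30.1% of all genes (18.5% with SS-TAMs higher, as for Cybb and Cyba, and 11.5% with SS-TAMs lower, as for Prdx1). Both counts are therefore near the background, and the description below turns on levels and on the individual genes.

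**Figure D1:**
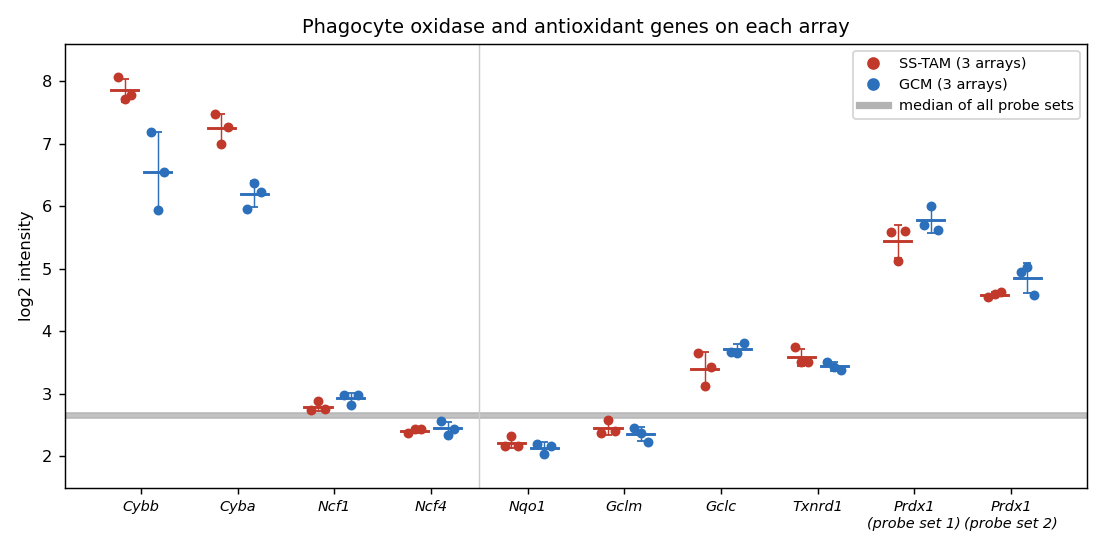
Log2 intensity of the 10 probe sets on each array, SS-TAM (red) left of GCM (blue); each point is 1 array, bars are group means and whiskers SD (n = 3), and the grey band is the range of the array medians. Cybb and Cyba lie above the band and apart between groups, whereas Ncf4, Nqo1 and Gclm lie below it in both.

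Cyba had intensities of 177.9, 127.9 and 154.3 on the SS-TAM arrays of replicates 1, 2 and 3, against 62.5, 83.2 and 75.5 on the GCM arrays. The lowest SS-TAM array thus lay above the highest GCM array. The difference was 2.08-fold (means of 153 ± 25.0 for SS-TAMs and 73.7 ± 10.5 for GCMs, SD, n = 3 each), with a log2 fold change of 1.05, a standard error of 0.16 and an adjusted p of 0.015 from limma. Without SS-TAM replicate 3 or GCM replicate 3 the adjusted p was 0.057 and 0.064, with log2 fold changes of 1.04 and 1.08. The product p22phox holds gp91phox stable in the membrane and also serves other NADPH oxidases.

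Cybb, which encodes the subunit that carries electrons across the membrane, was at 268.2, 211.2 and 221.3 in SS-TAMs and 146.2, 61.4 and 93.5 in GCMs. Every SS-TAM array lay above every GCM array, and GCM replicate 1 stood above the other GCM arrays. The means were 234 ± 30.4 for SS-TAMs and 100 ± 42.8 for GCMs (SD, n = 3 each), and the ratio of the geometric means was 2.46. The log2 fold change of 1.30 had a 95% interval of 0.53 to 2.07 and an adjusted p of 0.057 from limma, so Cybb was not called. The GCM arrays spread more on the log2 scale (SD 0.63) than the SS-TAM arrays (SD 0.18). Without GCM replicate 1 the log2 fold change was 1.62 and the adjusted p 0.029. Quantile normalization also brought Cybb past the threshold, with a log2 fold change of 2.17 and an adjusted p of 0.0066. Other settings moved it away from the threshold. The adjusted p from limma was 0.19 with array weights, and 0.11 to 0.17 with any array other than GCM replicate 1 left out.

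GCM replicate 1 also had the highest level of B cell markers, a cell type that transcribes Cybb. The mean log2 intensity of 14 B cell markers was 3.07 to 3.29 on SS-TAM arrays, and 4.76 on GCM replicate 1 against 3.56 and 3.62 on GCM replicates 2 and 3. Their summed intensity was 133 to 174 in SS-TAMs and 206 to 542 in GCMs, and 2 of the 14 (Cd79a and Ms4a1) were lower in SS-TAMs. The SCID hosts lack mature B cells, and the lymphoma cells around the SS-TAMs were human. Whether these mouse probe sets read human RNA was not tested. The part of B cell RNA in the GCM level of Cybb was not tested either. Markers of neutrophils, which carry the oxidase in abundance, were low in both groups. The summed intensity of 14 neutrophil markers was 79.8 to 82.2 in SS-TAMs and 75.4 to 79.1 in GCMs. None was called by limma (2 higher and 0 lower at an unadjusted p under 0.05), 12 of 14 had a mean below that of the median gene, and the granule gene Mpo was at 6.30 ± 0.56 for SS-TAMs and 6.63 ± 0.12 for GCMs (SD, n = 3).

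The intensities of the cytosolic subunit genes did not follow those of the membrane pair. Ncf1, whose product p47phox carries the other cytosolic subunits to the membrane, was at 6.7, 7.4 and 6.8 in SS-TAMs and 7.9, 7.1 and 7.9 in GCMs, just above the array medians. Ncf4, whose product p40phox binds a phosphoinositide of phagosome membranes, was at 5.2, 5.4 and 5.4 in SS-TAMs and 5.9, 5.1 and 5.4 in GCMs, below the array medians. Arrays of the groups overlapped for both genes. The log2 fold changes were -0.13 (95% interval -0.31 to 0.05) for Ncf1 and -0.03 (95% interval -0.21 to 0.14) for Ncf4, with adjusted p of 0.31 and 0.79 from limma. These intervals hold no change of intensity as large as that of Cyba. Near the array medians they cannot tell whether the transcripts changed by that much. No detection calls were used, so whether either probe set measured its transcript above background was not tested.

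**Figure D2:**
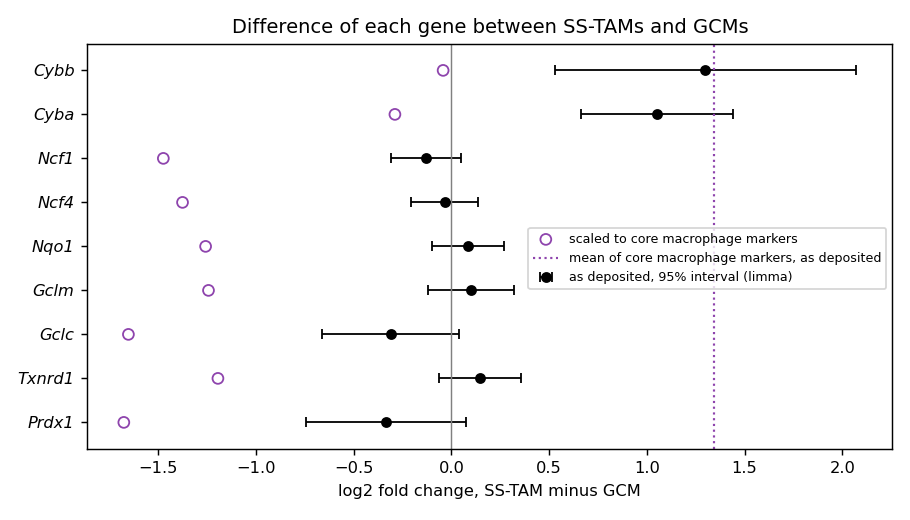
Log2 fold changes of the 9 genes in SS-TAMs over GCMs; filled points with 95% intervals are the deposited values by limma (3 arrays each), open circles the same with arrays scaled to their core macrophage markers, and the dotted line the markers' mean. Cybb (1.30) and Cyba (1.05) lie nearest the marker mean of 1.34; the other 7 genes lie near 0 as deposited and below -1 after scaling.

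Set against the mean of the macrophage markers of the same array, neither membrane subunit was higher in SS-TAMs. The log2 fold changes of these markers ran from -0.50 (Cx3cr1) to 4.07 (Adgre1), with a median of 1.22, below the 1.30 of Cybb. The sign thus depends on which markers are used, and the intervals leave that choice out. With each array scaled to the 22 markers the log2 fold change of Cybb was -0.04 (95% interval -0.44 to 0.36, adjusted p = 0.83 from limma) and that of Cyba -0.29 (95% interval -0.65 to 0.07, adjusted p = 0.11). This scaling moved the log2 fold change of every gene by the same amount, and every gene then carried the same array-to-array error of the markers. Adjusted p under it are not comparable with those of the deposited values. The scaling put the median of all genes at -1.30 and called 19569 genes lower. Relative to that median Cybb stood at 1.26 and Cyba at 1.01. The other 7 genes had log2 fold changes of -1.68 (Prdx1) to -1.19 (Txnrd1) under the scaling and were called lower. Relative to the median they lay between -0.37 and 0.11.

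Of the antioxidant genes, Nqo1 and Gclm lay below the array medians in both groups. Nqo1, which reduces quinones by transfer of 2 electrons, was at 4.5, 5.0 and 4.5 in SS-TAMs and 4.6, 4.1 and 4.5 in GCMs, below the array medians throughout. Gclm, the modifier subunit of the enzyme that limits glutathione synthesis, was at 5.2, 6.0 and 5.3 in SS-TAMs and 5.5, 5.2 and 4.7 in GCMs. Arrays of the groups overlapped for both. Their log2 fold changes were 0.08 (95% interval -0.10 to 0.27) and 0.10 (95% interval -0.12 to 0.32), with adjusted p of 0.50 and 0.51 from limma, and both turned negative when scaled to the macrophage markers (-1.26 and -1.24). Whether these probe sets measured their transcripts above background was not tested.

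Gclc, the catalytic subunit of the same enzyme, was at 12.6, 8.7 and 10.8 in SS-TAMs and 12.7, 12.6 and 14.1 in GCMs. The groups met at 12.6, and SS-TAM replicate 2 was the lowest array. The log2 fold change was -0.31 (95% interval -0.66 to 0.04, adjusted p = 0.24 from limma). Txnrd1, the selenoenzyme that reduces thioredoxin with NADPH, was at 13.4, 11.4 and 11.4 in SS-TAMs and 11.4, 10.8 and 10.4 in GCMs, so that 3 arrays shared a value of 11.4. Its log2 fold change was 0.15 (95% interval -0.06 to 0.36, adjusted p = 0.32 from limma), and it turned to -1.19 when scaled to the macrophage markers.

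Prdx1, a peroxidase that thioredoxin recycles, was read by 2 probe sets. The brighter was at 48.3, 35.1 and 48.5 in SS-TAMs and 52.2, 64.2 and 49.1 in GCMs. The groups did not overlap, but the gap between 48.5 and 49.1 was narrow. The other was at 23.4, 24.2 and 24.7 in SS-TAMs and 30.8, 32.6 and 23.9 in GCMs, with GCM replicate 3 among the SS-TAM values. Log2 fold changes were -0.33 (95% interval -0.74 to 0.07, adjusted p = 0.27) by the brighter and -0.26 (adjusted p = 0.25 over all probe sets with a single gene) by the other, both from limma. With quantile normalization the brighter gave -0.05. RefSeq also lists a Prdx1 pseudogene, and which of the copies each probe set reads was not examined.

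Within an array, the difference between the log2 values of 2 genes cancels any scaling of the whole array by 1 factor. Probe sets differ in brightness for the same amount of RNA, so only the change of this difference between groups is read. Its change between groups was tested for 4 pairs by the exact permutation test, two-sided, where 3 arrays against 3 cannot give a p below 0.1. Cybb minus Cyba was 0.59, 0.72 and 0.52 on the SS-TAM arrays, and 1.23, -0.44 and 0.31 on GCM replicates 1, 2 and 3. The difference varied less among the SS-TAM arrays (SD 0.10) than among the GCM arrays (SD 0.83), where replicate 1 had the highest Cybb and the lowest Cyba. This contrast in spread was not tested. The group means differed by 0.25 (exact p = 0.7), by -0.16 without GCM replicate 2 and by 0.68 without GCM replicate 1. Gclm minus Gclc was -1.28, -0.54 and -1.03 in SS-TAMs and -1.21, -1.28 and -1.58 in GCMs, a difference of 0.41 (exact p = 0.3), and 0.20 without SS-TAM replicate 2. Ncf1 minus Ncf4 differed by -0.10 (exact p = 0.2). Txnrd1 minus Prdx1 was -1.85, -1.62 and -2.09 in SS-TAMs and -2.20, -2.57 and -2.24 in GCMs. These did not overlap, and the difference of 0.48 had the smallest p the test allows (exact p = 0.1, and 0.4 when adjusted over the 4 pairs, as for the Ncf and Gcl pairs, and 0.7 for Cybb minus Cyba). After quantile normalization it was 0.14.

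**Figure D3:**
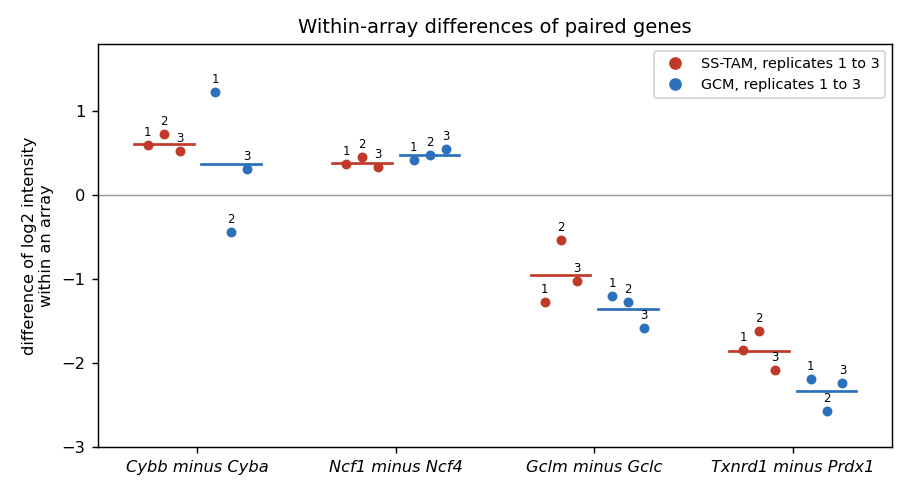
Difference of log2 intensity between 2 genes on the same array for 4 pairs, SS-TAM (red) left of GCM (blue); each numbered point is 1 array and each bar a group mean. Cybb minus Cyba spans 0.52 to 0.72 among SS-TAMs and -0.44 to 1.23 among GCMs, and the groups are apart only for Txnrd1 minus Prdx1.

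The genes most like Cybb over the 6 arrays, among 9961 genes brighter than the median gene, were Huwe1, Gabarapl1, Unc13a, Laptm5 and Ergic3, with Pearson correlations of log2 intensity of 0.982 to 0.992. For Txnrd1 they were Ppp4r1, F2r, Tsg101, Prdm2 and Lhfpl2, with correlations of 0.991 to 0.996. As 64 genes correlated above 0.95 with Cybb and 65 with Txnrd1, and the arrays share the difference between groups, these lists are descriptions only. Laptm5 is a lysosomal membrane protein gene of blood cells and is also among the core macrophage markers.

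In the surrounding pathways, 7 of 87 measured genes were higher in SS-TAMs and 6 lower by limma, against 5.16% and 4.74% of all genes. Means below are given ± SD over 3 arrays of each group. The median log2 fold change of the 87 genes was 0.02, and that of all genes 0.04. Quantile normalization gave 13 higher and 5 lower, where 4.9% of all genes were higher and 4.28% lower, and called 3 genes (Rac1, Cul3 and Sod1) in the direction opposite to the deposited values. Scaling to the macrophage markers gave 1 higher and 83 lower, where 98.1% of all genes were lower. With 1 array left out, 1 to 10 genes were higher and 1 to 4 lower, where 1.36% to 5.81% of all genes were higher and 2% to 3.99% lower. Only Mgst1 kept its call whichever array was left out, and the other 12 lost theirs without at least 1 array. The summed intensity of 14 T cell markers was 159 to 191 in SS-TAMs and 1172 to 1570 in GCMs, and the part of T cell RNA in the 6 lower genes was not tested.

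**Figure D4:**
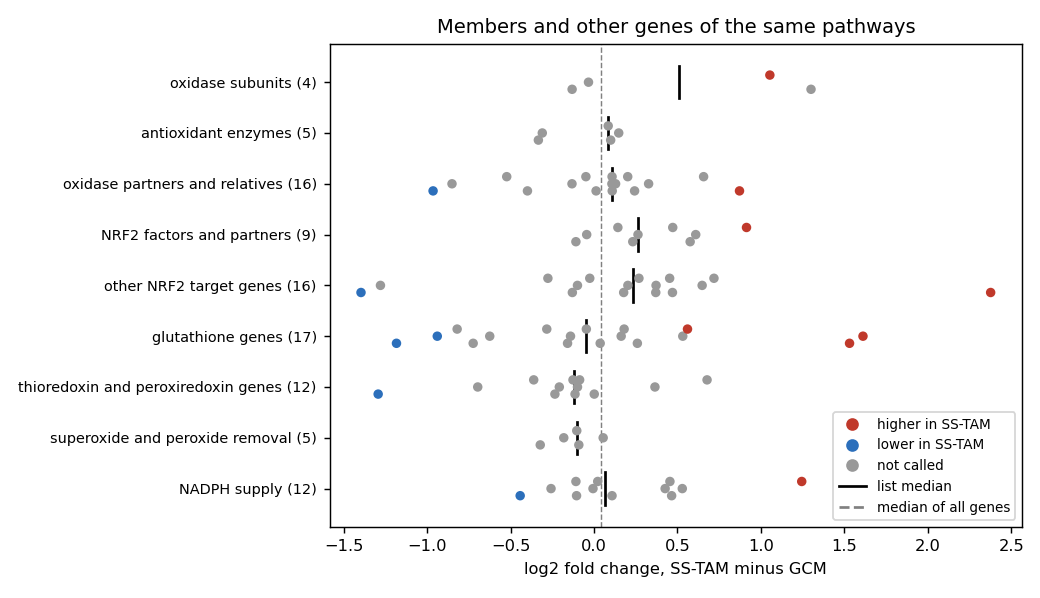
Log2 fold changes in SS-TAMs over GCMs for each measured gene in the 2 groups of oxidase and antioxidant genes and in 7 lists of related genes; each point is 1 gene (red higher, blue lower, grey not called by limma), black ticks are list medians and the dashed line is the median of all genes. Hmox1 lies farthest to the right at 2.38 and Gstp1 farthest to the left at -1.40; list medians lie between -0.12 and 0.51.

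Among 16 genes listed as oxidase partners and relatives, P2ry6 was higher and Rap1a lower. P2ry6 is not a component of the oxidase, and no other gene of the list was called higher. P2ry6, a receptor for UDP released by damaged cells, ranged between 14.2 and 18.5 in SS-TAMs and between 7.6 and 9.7 in GCMs (adjusted p = 0.016 from limma), missed the threshold with GCM replicate 2 or 3 left out (highest adjusted p 0.073) and turned to -0.47 on the log2 scale when scaled to the macrophage markers. Rap1a, a small GTPase that copurifies with the oxidase core, was at 124 ± 10.8 for SS-TAMs and 246 ± 56.8 for GCMs (adjusted p = 0.029), and kept its call among the fits with 1 array left out only without GCM replicate 3 (highest adjusted p 0.11). It also missed the threshold with array weights (adjusted p = 0.13) and with quantile normalization, where its log2 fold change was -0.09. Rac2, the RAC GTPase of blood cells that joins the oxidase, was at 35.6 ± 6.52 for SS-TAMs and 64.8 ± 15.6 for GCMs (adjusted p = 0.073, and 0.042 with dim genes left out). Rac1, its ubiquitous relative, was at 122 ± 23.5 for SS-TAMs and 132 ± 8.31 for GCMs (adjusted p = 0.61). Quantile normalization turned its log2 fold change of -0.13 to 0.61 and called it higher (adjusted p = 0.041). The other NADPH oxidases Nox1, Nox3 and Nox4 had means below 5 in both groups. Rac1 and Rac2 are named here after their values were seen, as partners of the complex.

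Of 9 genes of NRF2 and its partners, Nfe2l1, a relative of NRF2 that controls proteasome genes, was higher at 59.9 ± 9.82 for SS-TAMs and 31.8 ± 5.59 for GCMs (adjusted p = 0.028 from limma). It was not called in 4 of 6 fits with 1 array left out, keeping its call without SS-TAM replicate 2 and without GCM replicate 1 (highest adjusted p 0.11). With array weights its adjusted p was 0.066, and its log2 fold change was -0.43 when scaled to the macrophage markers. Nfe2l2, which encodes NRF2, was at 76.1 ± 25.9 for SS-TAMs and 49.0 ± 13.1 for GCMs (adjusted p = 0.29), and Keap1, its repressor, at 7.30 ± 0.78 for SS-TAMs and 7.90 ± 1.14 for GCMs (adjusted p = 0.63).

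Among 16 further NRF2 target genes, Hmox1 was higher and Gstp1 lower. Hmox1, the heme-degrading oxygenase that many other signals induce as well, was at 50.8 ± 23.6 for SS-TAMs and 9.27 ± 2.21 for GCMs (adjusted p = 0.015 from limma). It stayed above 0 when scaled to the macrophage markers, at 1.03 on the log2 scale. Leaving out SS-TAM replicate 3, GCM replicate 2 or GCM replicate 3 ended its call, with adjusted p up to 0.075. Gstp1, a glutathione transferase, was at 47.7 ± 3.89 for SS-TAMs and 129 ± 39.1 for GCMs (adjusted p = 0.018), and lost its call without any 1 SS-TAM array or GCM replicate 3, with adjusted p of at most 0.077, and with array weights (adjusted p = 0.072). Slc7a11, the cystine carrier that feeds glutathione synthesis, was at 7.53 ± 1.40 for SS-TAMs and 19.6 ± 8.67 for GCMs and was not called (adjusted p = 0.099, and 0.020 without GCM replicate 1).

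Of 17 glutathione genes, 3 were higher (Mgst1, Slc3a2 and Chac1) and 2 lower (Mgst2 and Glrx5). Mgst1, a membrane-bound glutathione transferase and peroxidase, was at 20.4 ± 5.63 for SS-TAMs and 6.53 ± 0.51 for GCMs (adjusted p = 0.0075 from limma), where it lay close to the array medians. Slc3a2, the heavy chain that Slc7a11 and other amino acid carriers share, was at 62.0 ± 14.3 for SS-TAMs and 21.3 ± 4.40 for GCMs (adjusted p = 0.012). The call of Slc3a2 ended with SS-TAM replicate 3, GCM replicate 1 or GCM replicate 2 left out, with adjusted p up to 0.066. Among 12 markers of fibroblasts and pericytes limma called 4 higher and 0 lower (7 higher and 0 lower at an unadjusted p under 0.05), while Rgs5 and Dcn had log2 fold changes of -0.95 and -0.19. Their summed intensity was 726 to 1380 in SS-TAMs and 306 to 348 in GCMs, and their part in the 7 higher pathway genes was not tested. Scaled to the macrophage markers, Mgst1 and Slc3a2 stood at 0.27 and 0.19 on the log2 scale and were not called. Chac1, which degrades glutathione, had a log2 fold change of 0.56, which was -0.78 under that scaling, and lost its call with any of the GCM arrays left out (adjusted p up to 0.091). Mgst2 was at 11.4 ± 1.82 for SS-TAMs and 26.5 ± 7.90 for GCMs (adjusted p = 0.036), and Glrx5, a mitochondrial glutaredoxin of iron-sulfur cluster assembly, at 20.3 ± 3.79 for SS-TAMs and 38.7 ± 4.32 for GCMs (adjusted p = 0.018). With 1 array left out, Mgst2 was called only without GCM replicate 1 and Glrx5 only without SS-TAM replicate 2, with adjusted p of at most 0.13 and 0.087. Mgst2 was also not called with array weights (adjusted p = 0.12).

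Of 12 thioredoxin and peroxiredoxin genes only Sesn3, a stress-induced sestrin, was called, at 11.2 ± 2.20 for SS-TAMs and 27.3 ± 3.06 for GCMs (adjusted p = 0.0095 from limma, and 0.051 without GCM replicate 2). Prdx2, a close relative of Prdx1, was at 112 ± 45.1 for SS-TAMs and 172 ± 14.6 for GCMs (adjusted p = 0.21), with a log2 fold change of -0.70 that was 0.07 after quantile normalization (adjusted p = 0.90). None of 5 genes of superoxide and peroxide removal was called by limma (1 lower and 0 higher at an unadjusted p under 0.05). Sod1, the cytosolic superoxide dismutase, was at 501 ± 45.8 for SS-TAMs and 625 ± 25.4 for GCMs (adjusted p = 0.068), and it was called lower once arrays were centred on their medians (adjusted p = 0.045). Quantile normalization turned its direction and called it higher, with a log2 fold change of 0.78 and an adjusted p of 0.0023. Cat, catalase, was at 18.4 ± 3.46 for SS-TAMs and 19.6 ± 3.58 for GCMs (adjusted p = 0.79). Among 12 genes of NADPH supply, the isocitrate dehydrogenase gene Idh1 was higher at 42.0 ± 12.5 for SS-TAMs and 17.2 ± 2.01 for GCMs (adjusted p = 0.032), and the mitochondrial malic enzyme gene Me2 lower at 27.7 ± 3.41 for SS-TAMs and 37.5 ± 0.17 for GCMs (adjusted p = 0.044). With 1 array left out, Idh1 was called only when SS-TAM replicate 2 was the one omitted, with adjusted p of at most 0.13, and it was at -0.10 on the log2 scale when scaled to the macrophage markers. Me2 was not called without SS-TAM replicate 3 or any of the GCM arrays (adjusted p up to 0.15), nor with quantile normalization or the trend and robust prior (adjusted p = 0.073 and 0.11).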

How the data were processed

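The authors deposited intensity values, linear and with 1 decimal, summarized per probe set. Their processing notes name RMA and limma, with no versions. Values were taken to log2, each probe set took its gene from the platform's annotation, with symbols updated by gene ID against RefSeq (21698 of 21789 matched), and the brightest stood for a gene. SS-TAM and GCM arrays were compared by limma's two-sided moderated test without covariates (limma 3.58.1, R 4.3.3), adjusted by Benjamini-Hochberg over 19938 genes at 0.05. The procedure was tested on simulated data. Folds are ratios of geometric means, and the number of arrays limits the precision. Of 92 pathway genes listed, 87 were measured. The 9 genes, lists and pairs were chosen with earlier results of these data known. Named were all 9, up to 4 called genes of each list by size of change or else its 2 brightest, and the 5 genes most like Cybb and Txnrd1. Chac1, Rac1, Rac2, Nox1, Nox3, Nox4, Nfe2l2, Keap1, Slc7a11, Prdx2, Mpo, Txn1, Cul3, Rgs5, Dcn and the CCAAT and GC box motifs were chosen after their values were seen. Alternatives covered scaling, probe set choice, dim genes, variance model, array weights, a replicate block and each array left out. Promoter windows come from RefSeq (GRCm38.p6).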

Additional observations from a re-analysis of the deposited data

How the results depend on the processing

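Of the 9 genes, 1 was called higher. The count was 2 with quantile normalization, with dim genes left out and with the trend and robust prior, 0 when scaled to core macrophage markers, and 0 to 2 with 1 array left out. Of all genes 4.9%, 8.88%, 5.66% and 0.617% were higher in these 4 settings, and 1.36% to 5.81% with 1 array left out. The second gene was Cybb each time (adjusted p = 0.0066, 0.030 and 0.045, and 0.029 without GCM replicate 1). Cybb was not called with median centring (adjusted p = 0.059 from limma) or array weights (0.19). Nor was it called with any other array left out (0.11 to 0.17). No gene of the 9 was called lower except under scaling to the macrophage markers, which gave 7 and called 98.1% of all genes lower. Under that scaling Cybb was at -0.042, Cyba at -0.29, Nqo1 at -1.26, Gclm at -1.24 and Txnrd1 at -1.19 on the log2 scale. Ncf4 ranged between -0.082 and 0.023 with 1 array left out, positive without GCM replicate 1, and Cybb minus Cyba, 0.25, ranged between -0.16 and 0.68 with 1 array left out. Quantile normalization, which removes the gap between the groups in the 99th percentile, put Cybb at 2.17 and Cyba at 1.77. Pathway genes called higher numbered 13 with quantile normalization, 1 when scaled to the macrophage markers and 1 to 10 with 1 array left out, against 7. Those called lower numbered 83 under the marker scaling, 3 with array weights and 1 to 4 with 1 array left out, against 6. Of all genes 98.1%, 3.41% and 2% to 3.99% were lower in these settings. Txnrd1 minus Prdx1 moved to 0.14 with quantile normalization. With the replicate number as a replicate block 1 of the 9 genes was called higher, Cybb (adjusted p = 0.041 from limma) in place of Cyba (0.060). Of the pathway genes 10 were higher and 4 lower under the block, the lower ones including Rac2 (0.023). Of all genes 3.06% were higher and 3.55% lower. P2ry6, Rap1a, Mgst2 and Me2 lost their calls under the block (adjusted p = 0.060, 0.067, 0.059 and 0.085 from limma). Same-numbered arrays correlated at 0.091, 0.082 and 0.015 in their deviations from the group means, and arrays of different number at -0.086 to 0.013. All of these are small, and SS-TAM replicate 3 had 0.015 with GCM replicate 3 and 0.013 with GCM replicate 2. Whether the arrays are paired cannot be read from these values, and the labels do not pair the mice. For single genes of the 9, 105 of 123 alternative values kept direction and side of the threshold. No detection calls were used, so dim genes carry little information.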

Other observations

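Txn1, which encodes the thioredoxin that Txnrd1 reduces and Prdx1 uses, was at 474.6, 526.0 and 640.2 in SS-TAMs and at 542.2 on all 3 GCM arrays. An identical value on 3 arrays at this brightness gives a GCM spread of 0, which limits what the test can say of this gene (adjusted p = 1.00 from limma, with a log2 fold change of 0.0013). Quantile normalization gave Txn1 a log2 fold change of 1.06 and an adjusted p of 0.00055, so its call depended on the scaling.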
